A study of Mus musculus with 2 samples.

Results

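The cells described here carried transcripts of mesothelium, the flat epithelium that covers the outer face of the uterus. They were 332 of 7908 cell barcodes, 228 in a library from Erbb3 f/f control mice and 104 in a library from Erbb3 d/d mice, in which Erbb3 was deleted in the stroma. A barcode was a member where its unique molecular identifiers (UMIs, counts of distinct captured molecules) of Msln, Upk3b, Upk1b, Cldn15, Rspo1 and Bnc1 summed to at least 2. This sum also had to exceed each of 4 competing sums of epithelial, stromal, endothelial and immune genes, and at most 10% of the barcode's UMIs could be mitochondrial. Both libraries came from endometrium taken on day 3 of pregnancy and were made with the Chromium Flex assay, in which probe pairs hybridise to transcripts of fixed cells. Both genotypes are written in the usual notation for a conditional gene, with f for the floxed and d for the deleted allele. The promoter that drove the deletion, the number of mice behind each library and their age are not given in the sources used here, and the labels place the deletion in stroma without naming mesothelium. The labels name the cell type as endometrial cells, and say nothing of outer uterine layers.

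Mesothelial cells form a single layer over the organs and walls of the body cavities. They carry keratins and tight junctions like other epithelia, yet share Wt1 and other transcription factors with mesenchyme. They coat their surface with mucins and glycoproteins, rest on a basement membrane, secrete complement, growth factors and R-spondin, and can turn into fibroblast-like cells after injury. Erbb3 encodes a receptor of the ErbB family that binds neuregulins and signals mainly through its partner Erbb2.

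The deposited counts held 5783 f/f and 2125 d/d barcodes, of which 5503 and 1830 lay within the mitochondrial limit. No full barcode occurred in both libraries, and 158 droplet sequences, the first 16 bases of the barcode, did. None of these 158 joined a mesothelial f/f cell to a mesothelial d/d cell. The mesothelial cells summed to 214239 f/f and 112692 d/d UMIs, with a median per cell of 689.5 (497 to 3932) and 798.5 (505 to 7943). Their median mitochondrial share was 0.964% in f/f and 4.56% in d/d. The same share was 1.18% and 2.49% in stromal cells, 2.42% and 4.96% in endothelial cells and 0.509% and 0.598% in epithelial cells. In the 51 and 24 immune cells it was 1.07% and 3.21%, with all classes gated in the same way. With 1 library per genotype no test between genotypes was possible. Every interval given is a 95% interval that covers counting error only, and the spread between animals is unknown.

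The gate genes themselves describe how the members were found and support nothing. In cells thinned to 500 UMIs, so that depth does not set the share, Upk1b was seen in 39.8% of the f/f members and 26.0% of the d/d members. Rspo1, a secreted enhancer of Wnt signalling, was seen in 39.4% and 34.6%, and Msln, the mesothelial surface glycoprotein mesothelin, in 34.5% and 26.0%. The uroplakin Upk3b was seen in 33.2% and 17.3%, the tight junction claudin Cldn15 in 30.1% and 25.0%, and the zinc finger gene Bnc1 in 19.9% and 15.4%. Each of the 6 genes was seen in at most 3.92% of the cells of any other gated class. Most members had only a few gate molecules: the median sum was 4 f/f and 3 d/d UMIs, and 23 f/f and 17 d/d members had UMIs of a single gate gene.

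As background to the surface genes, the 250 bases before the start sites of Upk3b and Lrrn4 are printed here. Upk3b is a gate gene, and Lrrn4, a leucine-rich repeat membrane protein, was among the leading genes outside the gate. The sequences are from RefSeq on build GRCm38.p6, read 5′ to 3′ on the gene's strand. Upk3b lies on the plus strand at chr5:136038246-136038495 and Lrrn4 on the minus strand at chr2:132880863-132881112. Capitals mark a match to GGAATG or its reverse complement CATTCC, a 6-base motif of the TEAD type.
Upk3b: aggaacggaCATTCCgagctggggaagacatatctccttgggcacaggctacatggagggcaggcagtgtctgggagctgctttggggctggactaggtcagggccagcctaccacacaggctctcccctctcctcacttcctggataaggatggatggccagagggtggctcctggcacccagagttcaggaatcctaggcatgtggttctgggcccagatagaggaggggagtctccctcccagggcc
Lrrn4: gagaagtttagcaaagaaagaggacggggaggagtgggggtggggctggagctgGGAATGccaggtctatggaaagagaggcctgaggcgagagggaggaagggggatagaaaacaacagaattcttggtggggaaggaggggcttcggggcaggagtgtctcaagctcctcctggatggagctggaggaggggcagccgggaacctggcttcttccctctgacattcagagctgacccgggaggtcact
The match began 241 bases before the start site of Upk3b and 196 bases before that of Lrrn4. Promoters of 11 of 21 gate and leading genes were in the RefSeq table, and 4 of the 11 held the motif on either strand, namely Cldn15, Lrrn4, Upk3b and Zfp185. It occurred in 12.6% of all 32851 promoter windows of that length. A GATA-type motif, AGATAA or TTATCT, was in 0 of the 11 and in 9.99% of all windows. The counts out of 11 are of genes with a match in any of their windows, while the percentages are of windows. They are unlike measures and are not compared here. A match describes letters in a window and is not a binding site.

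Mesothelial molecules outside the gate were present on both sides of the gate's limit. Lrrn4, Muc16, Gpm6a, Nkain4, Gata6, Crb2, Ildr2 and Pdpn were summed as CPM, UMIs scaled to a common total per class and library. These 8 were chosen after their values were seen, from 21 mesothelial markers outside the gate. Each was seen in a larger share of members than of each other class. Markers without that order, such as Krt8, Krt19 and Cav1, were left out, as was Wt1. In f/f cells just inside the gate, at a sum of 2, the 8 genes reached 1049.8 CPM (777 to 1388, 59 cells). They reached 1480.2 CPM at a sum of 3, 1736 CPM at 4 and 1239.6 CPM (1023 to 1488) in the 78 cells at 5 or more, so the level did not follow the gate sum among members. In d/d the values were 692 CPM (452 to 1014, 44 cells) at 2, 705 CPM at 3, 994 CPM at 4 and 1024 CPM (741 to 1379.8, 20 cells) at 5 or more, with overlapping intervals. Just outside the gate, cells with a gate sum of 1 and no competing UMI had 669.7 CPM in f/f (43 cells) and 531 CPM in d/d (34 cells). Cells that passed no gate and had no gate UMI had 22.2 and 51.3 CPM. A further 34 f/f and 33 d/d cells met the gate sums but were over the mitochondrial limit, and their 8-gene sum was 2162 and 1379 CPM. Transcripts of these 8 genes were therefore not confined to the cells counted here.

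**Figure D1:**
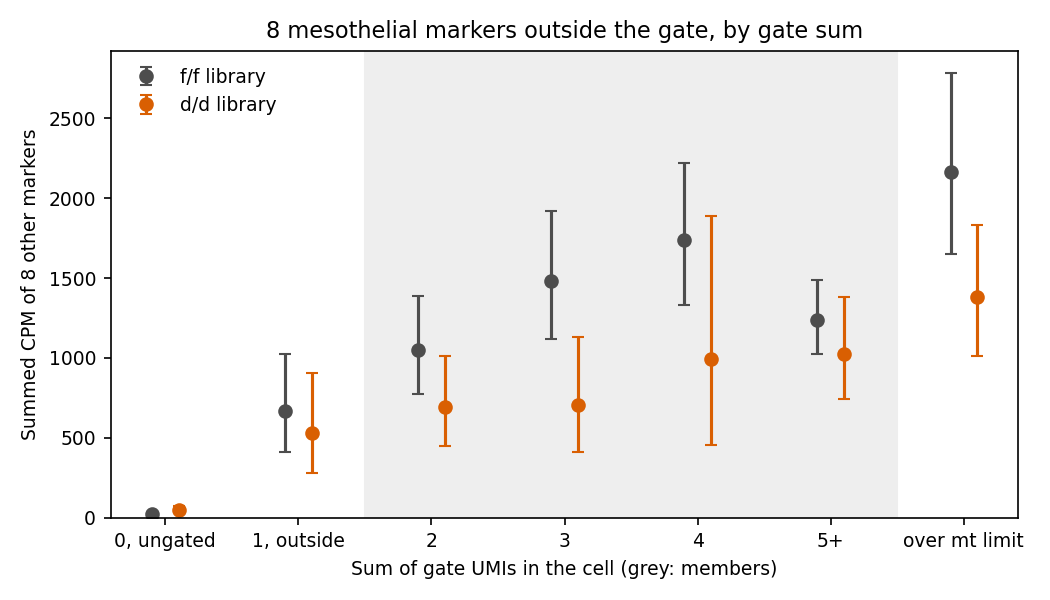
Summed CPM of 8 mesothelial genes outside the gate (y axis) against the number of gate UMIs per cell (x axis), in the f/f and the d/d library, with 95% Poisson counting intervals. The 8 genes were picked from 21 markers after their values were seen. The grey band marks members. Cells at a gate sum of 1 lie at 669.7 CPM in f/f and 531 CPM in d/d, far above the 22.2 and 51.3 CPM of ungated cells without gate UMIs.

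The label was checked against 21 mesothelial markers that the gate did not use. In both libraries 12 of the 21 were seen in a larger share of mesothelial cells than of each of the 4 other classes, in cells thinned to 500 UMIs. Wt1, the zinc finger regulator of mesothelium and of urogenital mesenchyme, had a UMI in 46.9% of the f/f members (40.3 to 53.6) and 42.3% of the d/d members (32.7 to 52.4). Stromal cells followed at 34.2% and 29.8%, and without thinning the mesothelial shares were 64.0% and 52.9%. Lrrn4 was seen in 16.8% and 6.73%, against at most 0.421% in any other class, of which the immune class had only 51 and 24 cells. Muc16, the membrane mucin that makes up much of the mesothelial surface coat, was seen in 8.85% and 4.81%, against at most 0.575% elsewhere. Gata6, Nkain4, Crb2, Ildr2, Pdpn, Gpm6a and Pkhd1l1 showed the same order, as did Krt7, at 30.5% and 24.04% in mesothelial and 9.63% and 16.6% in epithelial cells. Aldh1a2, which makes retinoic acid, was seen in 12.8% and 22.1% of mesothelial and 7.84% and 18.8% of stromal cells.

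The remaining 9 markers did not set these cells apart. Krt8, Krt18 and Krt19, keratins of simple epithelia, were seen in more epithelial than mesothelial cells, with Krt19 at 31.5% and 37.1% in epithelial against 24.8% and 28.8% in mesothelial cells. Cav1 and Podxl were seen in more endothelial cells in both libraries, and Bcam in more endothelial cells of d/d alone. Upk1a was at most 0.442% in mesothelial cells. Calb2 (calretinin), a marker much used in pathology, had no UMI in any class of either library, and Prg4 had none in mesothelial cells. A count of 0 in these cells allows a share of cells with a UMI of up to 1.32% in f/f and 2.88% in d/d (3 cells of each set), and it sets no limit on the cells that express the gene.

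**Figure D2:**
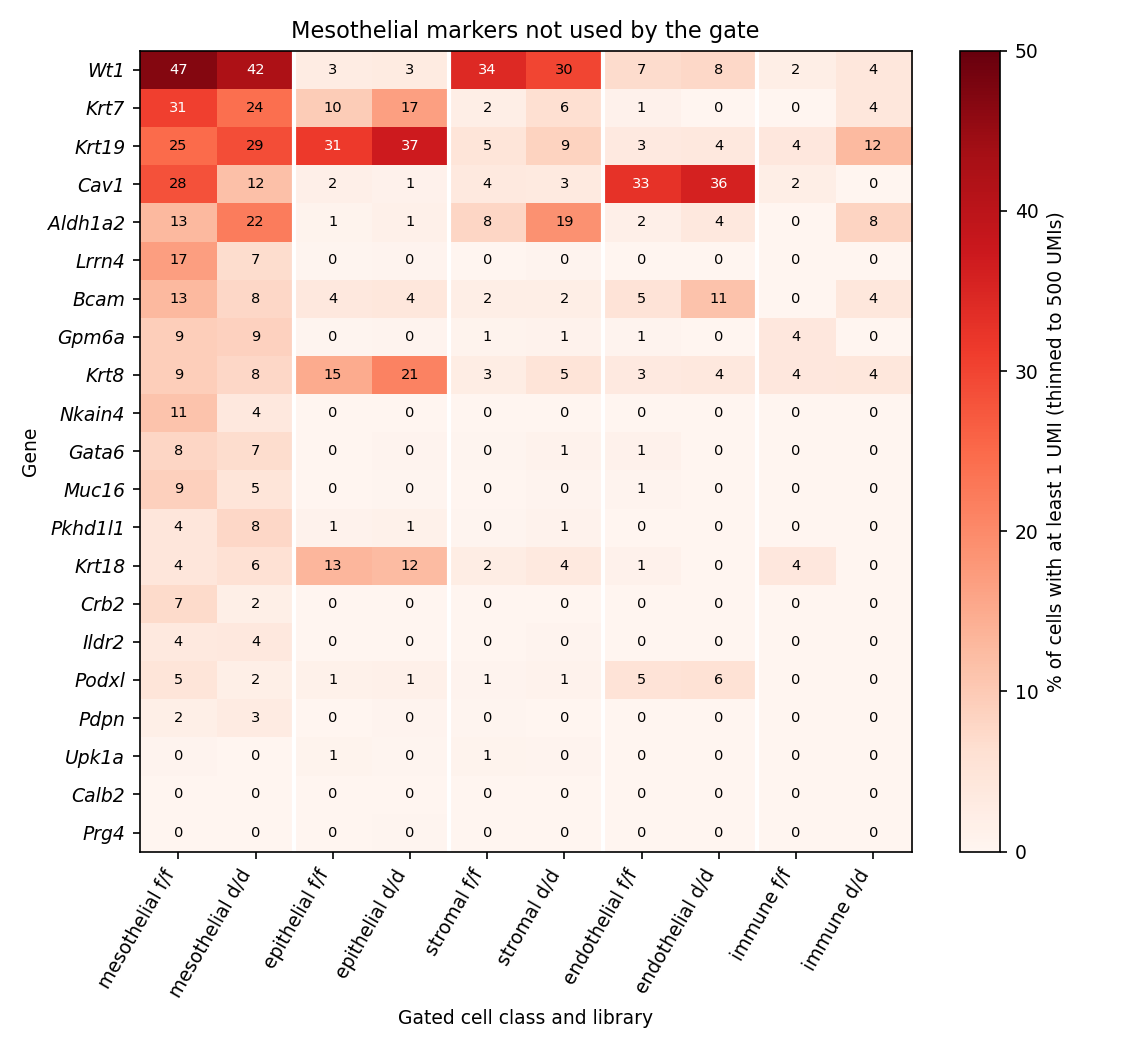
Share of cells with at least 1 UMI of each mesothelial marker outside the gate (rows), in cells thinned to 500 UMIs, for 5 gated classes of the f/f and the d/d library (columns). Colour and printed number both give the percent. Wt1 is seen in 47 and 42% of mesothelial cells and in 34 and 30% of stromal cells, and Lrrn4 almost only in the mesothelial columns.

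Clustering of both libraries without the gate sums placed most members together. The gate genes were not removed before clustering, and the same mitochondrial limit applied, so it is no independent check of the label. Of 15 Leiden clusters, 1 held 314 of the 332 gated cells (94.6%). That cluster had 609 cells, 390 from f/f and 219 from d/d, so 51.6% of it passed the gate. The share that passed was 57.2% in f/f and 41.6% in d/d.

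Markers of other classes were measured in the members as well. The stromal genes Col1a1, Col3a1, Dcn, Pdgfrb and Hoxa11 summed to 3025 CPM in f/f and 2520.1 CPM in d/d mesothelial cells, beside 4895 and 4758 CPM in stromal cells. Dcn, a small matrix proteoglycan, had a level of 509 CPM in f/f and 515 CPM in d/d mesothelial cells, above the 68.6 and 139.5 CPM of stromal cells. The 4 epithelial genes outside the gate (Esrp1, Prom1, Klf5 and Pax8) summed to 322 and 515 CPM, beside 1226 and 1561 CPM in epithelial cells and 294 and 362 CPM in stromal cells. Pax8, the paired box regulator of Müllerian epithelium, had 24 f/f and 27 d/d UMIs in mesothelial cells, 112 and 240 CPM. Endothelial genes summed to 18.7 and 35.5 CPM, immune genes to 14.0 and 62.1 CPM and smooth muscle and pericyte genes to 121 and 142 CPM. Adipoq, Plin1 and Fabp4 of fat and Sox10 of nerve sheath were all at 0. Of 7 ovary and oviduct genes 4 had UMIs in f/f members and 2 in d/d members, while Foxj1, Lhx9 and Cyp11a1 had none. The 7 summed to 84.0 CPM in f/f (18 UMIs) and 53.2 CPM in d/d (6 UMIs). Their sum was 79.1 and 86.7 CPM in stromal cells and 47.5 and 30.9 CPM in epithelial cells. The part of these other-class transcripts in the differences below was not tested, beyond the gate with all competing sums at 0, which 106 f/f and 44 d/d cells met.

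Genes with their highest level in mesothelial cells were ranked by how far their CPM there exceeded the highest of the other 4 classes, taking the lower of the 2 libraries. The gate chose these cells, so the ranking is a description. As counted, with gate genes left out, 92 genes were at least 2 times, 61 at least 3 times and 27 at least 5 times above the highest other class in both libraries. The d/d immune class summed to only 27066 UMIs, so that 3 UMIs there equal 111 CPM, and many of these genes were at 0 in it. With each other class set to no less than 3 UMIs, 49 genes were at least 2 times, 18 at least 3 times and 4 at least 5 times above it, and 3 of the 15 leading genes stayed among the first 15. These were Myrf, Ccdc85a and Cdon, at no less than 6.40, 4.08 and 4.08 times. Against the deeper epithelial and stromal classes alone, with the same minimum, each of the 15 was at least 5 times higher. Espn, which bundles actin in microvilli, led with a ratio of 24.6 in f/f and 15.7 in d/d, from 48 and 20 UMIs. Gata6, a zinc finger factor of mesoderm and serosal layers, followed with 15.4 and 18.8, and Lrrn4 with 57.1 and 12.3. Next came Nrxn2, Ccdc85a, the forkhead factor Foxo6, the actin-binding gene Zfp185, the metalloprotease Adam33 and Trdn. The last of the 15 were the Hedgehog co-receptor Cdon, the membrane-bound factor Myrf, the homeobox gene Hoxc6, the complement C1 inhibitor Serping1, Cys1 and the cytokine Il18. Myrf had 180 f/f and 80 d/d UMIs, Cdon 161 and 51, Ccdc85a 122 and 51, and Adam33 121 and 36, so that these 4 rest on the largest counts among the 15.

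**Figure D3:**
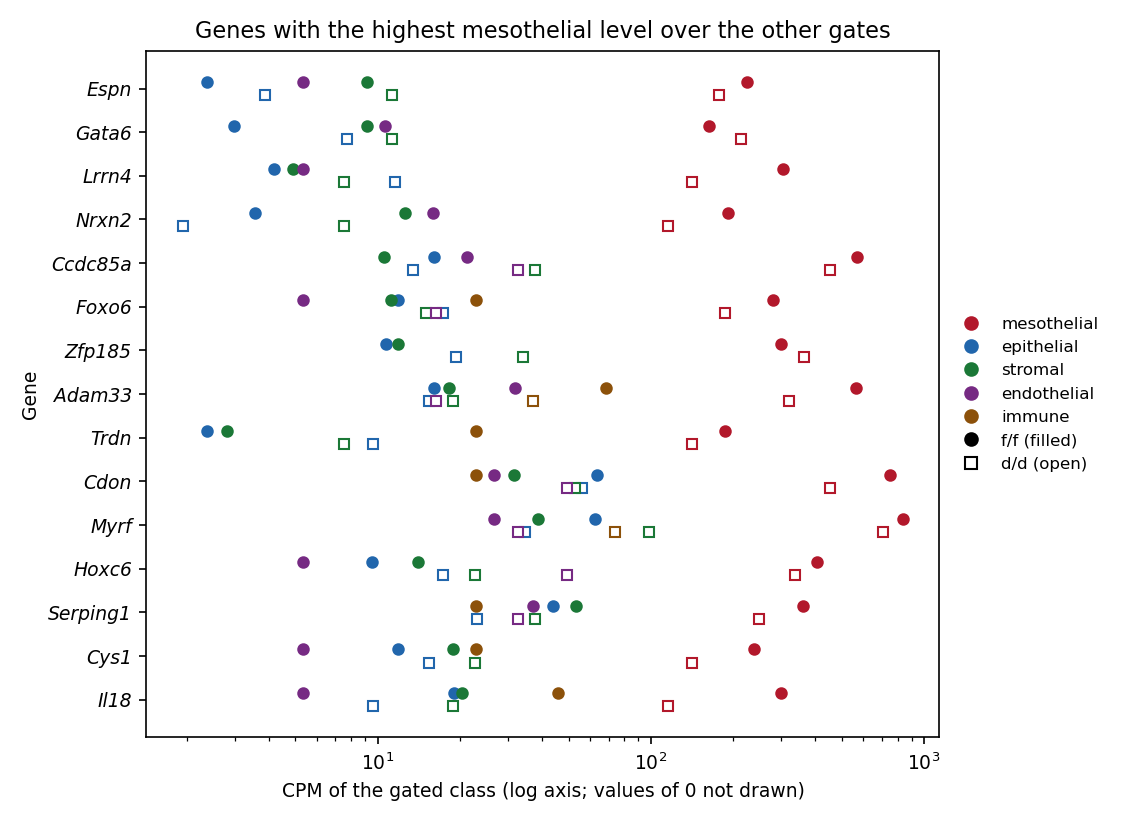
CPM (log axis) of the 15 genes with the highest mesothelial level over the other gated classes, in f/f (filled circles) and d/d (open squares). A class at 0 is not drawn. The red mesothelial points of a library lie to the right of its epithelial and stromal points for each gene, in d/d by 6.12 times for Il18 and 15.7 times for Espn, while classes at 0 can hide levels up to that of 3 UMIs.

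Members varied most in mitochondrial transcripts. Over 2148 genes with enough counts, the median ratio of variance to mean of the UMIs per thinned cell was 1.05, where counting alone gives about 1. The 8 highest ratios were those of mitochondrial genes, led by mt-Co2 with 4.03 (f/f) and 3.48 (d/d). The gate limits the mitochondrial share to 10%. Jam2, a junctional adhesion molecule, had 2.51 and 1.92, with a UMI in 8.41% of the f/f members and 5.77% of the d/d members. The flavin monooxygenase Fmo2 had 2.23 and 2.19, from 7.96% and 6.73% of members. Jam2 was 3.71 times higher in another gated class, epithelium, where it had 3180 UMIs in f/f. Complement C3 came among the next genes, at 1.68 and 2.01, and was seen in 40.7% of the f/f members and 26.0% of the d/d members.

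The difference in mesothelial share between the libraries depended on how the cells were taken. It was 4.14% of f/f (3.63 to 4.70) and 5.68% of d/d cells (4.67 to 6.84) within the mitochondrial limit, a difference of 1.54 percentage points (0.38 to 2.81). With a mitochondrial limit of 5% the difference was 0.045 points, with a gate sum of at least 3 it was 0.21, and with at least 5 it was -0.32. In the Leiden cluster it was 4.88 points, so neither size nor direction held over these settings. Among cells that passed any of the 5 gates the shares were 7.27% and 11.5%, while the stromal share was 42.2% and 27.2%. Per 100 stromal cells there were 17.2 f/f and 42.4 d/d mesothelial cells, per 100 epithelial cells 16.8 and 21.9, and per 100 immune cells 447 and 433. How much outer tissue each dissection took in cannot be told apart from genotype with 1 library each.

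Differences in gene level were given as the log2 ratio of CPM, d/d over f/f, for the 1676 genes with 50 or more UMIs in the 2 libraries together. A gene was called where the ratio was at least 2-fold and its counting interval left out 0. Of the 1676 genes, 29 were called higher in d/d (1.73%) and 66 lower (3.94%), and the median ratio was -0.04 with an SD over genes of 0.52. The f/f sum was deeper, at 214239 against 112692 UMIs. A gene high in f/f alone therefore met the 50-UMI minimum at a lower CPM than one high in d/d alone. Xdh, Wnt2b, Rnf112 and Dbp, called lower, met it through f/f alone. The part of this minimum in the larger number of lower calls was not tested. The calls depended on which cells were taken: in the Leiden cluster that held most members 37 genes were higher and 92 lower, of which 6 and 25 were among the 29 and the 66. With competing sums at 0, only 201 genes had enough counts, with 7 higher and 18 lower. Of the 29 higher genes, 24 also had a ratio above 0 in stromal cells and 24 in epithelial cells, and 15 had a ratio that differed from the stromal one with an interval without 0. Of the 66 lower genes, 47 were also below 0 in stromal and 49 in epithelial cells, and 31 differed from the stromal ratio in that sense. The same shares over all 1676 genes are not given here, so these counts do not set the called genes apart from the rest.

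**Figure D4:**
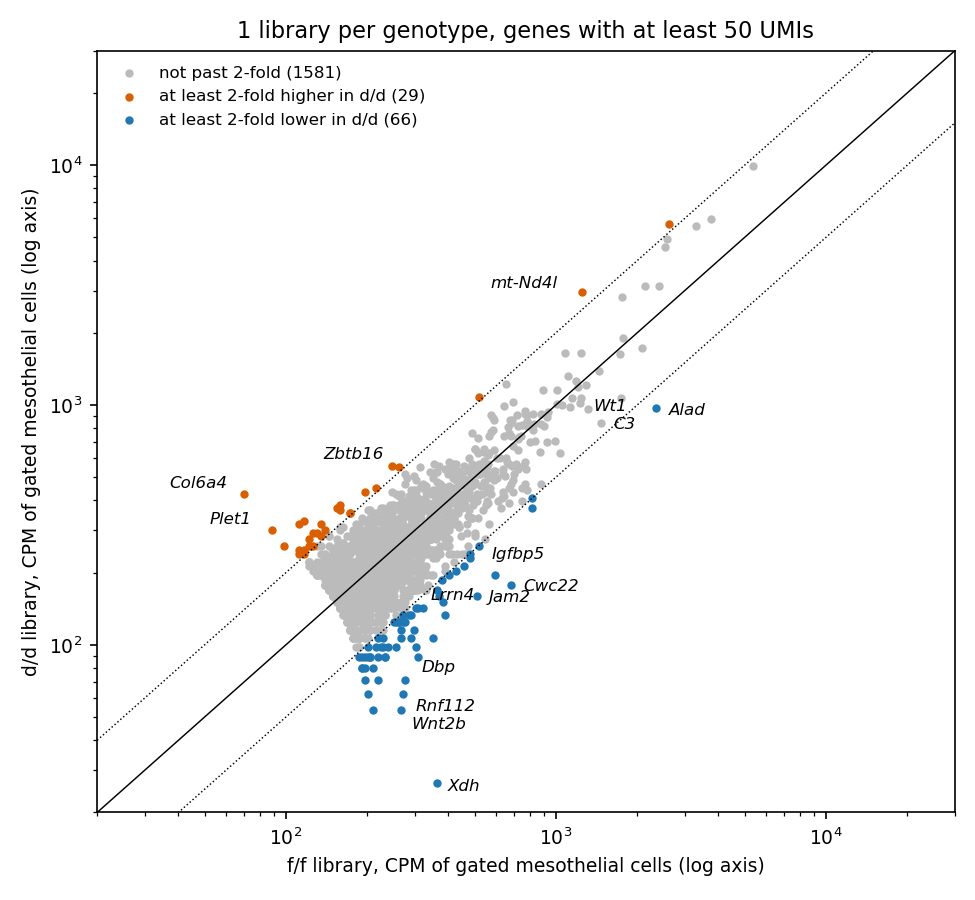
CPM in gated mesothelial cells of the d/d library (y axis) against the f/f library (x axis), both on log axes, for 1676 genes. Each point is a gene. Dotted lines mark 2-fold. 29 genes lie above the upper and 66 below the lower line.

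All 13 mitochondrial genes had a ratio above 0 in mesothelial cells. Called among them were mt-Nd4l at 1.25 (1.01 to 1.49), mt-Nd6 at 1.12 (0.95 to 1.28) and mt-Nd3 at 1.06 (0.68 to 1.45), subunits of respiratory complex I. The mt-Nd4l ratio was 0.63 in stromal, 0.18 in epithelial, 0.68 in endothelial and 1.04 in immune cells, the last from 47 and 60 UMIs. With these 13 genes left out of the totals, 30 genes were higher and 60 lower, and within a mitochondrial limit of 5% 18 and 48 of 882 counted genes. The part of the mitochondrial share in the other differences was not tested beyond these values.

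Wnt2b, a secreted Wnt ligand, gave the largest called difference among genes whose f/f level was highest in mesothelial cells. It had 57 f/f UMIs, a level of 266 CPM, and 6 d/d UMIs, a level of 53.2 CPM. The d/d library was thus lower, with a log2 ratio of -2.32 (-3.83 to -1.11). Other classes held few Wnt2b molecules, with 11 and 3 UMIs in stromal and 5 and 5 in epithelial cells, and the mesothelial minus the epithelial log2 ratio was -4.02 (-6.18 to -1.86). Wnt2b stayed lower under each of the 12 other settings, from -3.76 to -1.09. It is gene ENSMUSG00000027840, at chromosome 3, 104945272 to 104961921 on the minus strand of GRCm38.

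No other Wnt gene was called. Of 46 R-spondin and Wnt genes 4 had enough counts, with Wnt2b called lower, none called higher and a median of -0.13. Over all counted genes 3.94% were called lower and 1.73% higher. In this and the later gene lists at most 17 genes were counted, so a few calls are no result about a list. Znrf3, a ubiquitin ligase that removes Wnt receptors, had 26 f/f and 25 d/d UMIs and a ratio of 0.87. Wls, which carries Wnt proteins to the surface, had 84 and 37 UMIs and a ratio of -0.26. The R-spondin of the gate, Rspo1, had 201 f/f and 105 d/d UMIs, 938 and 932 CPM, with a ratio of -0.01 (-0.36 to 0.34). These cells were chosen in part by Rspo1, so its values are a description.

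Of the 23 surface coat genes outside the gate only Lrrn4, Bcam and Gpm6a had 50 UMIs, with a median of -0.69. None of the 3 was above 0 and 1 was called. The gate genes, whose values chose the cells and are a description, were Upk3b (161 and 45 UMIs) and Upk1b (188 and 53 UMIs) at -0.91 and -0.90, Msln (166 and 61) -0.52, Cldn15 (150 and 58) -0.44 and Bnc1 (83 and 41) -0.09. Outside the gate, Lrrn4 had 65 f/f and 16 d/d UMIs and was called lower at -1.10 (-1.98 to -0.29). Muc16 had 35 and 10 UMIs (163 and 88.7 CPM), Nkain4 had 37 and 7, and Slpi, a secreted protease inhibitor, had 12 and 0. Lrrn4 moved to -0.08 at a gate sum of at least 5 and to -0.49 in the Leiden cluster, so the call did not hold in those cells.

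Of the 15 leading genes 2 had a ratio above 0, beside 783 of all 1676 counted genes. Their median was -0.53, and 2 were called lower, Lrrn4 and Il18, beside 66 of all 1676 counted genes. Il18, a cytokine of the interleukin-1 family, had 64 f/f and 13 d/d UMIs and a ratio of -1.37 (-2.36 to -0.50). At a gate sum of at least 5 it was -0.01. The 2 leading genes above 0 were Gata6 (35 and 24 UMIs, 0.38) and Zfp185 (64 and 41 UMIs, 0.28).

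Transcription factors and retinoid genes gave a mixed picture. Wt1 had 266 f/f and 120 d/d UMIs, 1242 and 1065 CPM, and a ratio of -0.22 (-0.54 to 0.09). Of 26 genes on this list 7 were counted, with 1 called higher, none called lower and a median of 0.15 (-0.16 to 0.45), whose sign turned under other settings. The called gene was Dhrs3, a retinaldehyde reductase, at 1.04 from 25 and 27 UMIs, and it was over 5 times higher in another class. Aldh1a2 had 56 and 42 UMIs (0.51, -0.10 to 1.11). Meis1 and Meis2, homeobox cofactors, were at 0.15 and -0.19.

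Junction and matrix genes had medians near that of all genes. Of 37 junction, polarity and keratin genes 9 were counted, with Jam2 called lower and a median of -0.09. Jam2 had 109 f/f and 18 d/d UMIs and a ratio of -1.67, beside -2.02 in epithelial and -1.87 in stromal cells. After every barcode had been thinned to 500 UMIs before gating, the Jam2 ratio was 1.12, so no direction is given for mesothelial cells. Cgn, the tight junction gene cingulin, had 70 and 19 UMIs (-0.95), Ezr, an actin linker of microvilli, 136 and 61 (-0.23), and Krt7 140 and 68 (-0.11).

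Of 41 basement membrane and matrix genes 17 were counted, with 2 called lower, none called higher and a median of -0.05. The called genes were Efemp1 (fibulin-3), with 45 and 6 UMIs and a ratio of -1.98 (-3.50 to -0.75), and Col18a1, a basement membrane collagen, with 69 and 16 UMIs and a ratio of -1.18. Col18a1 had a like ratio in stromal cells, -1.33, whereas Efemp1 was at 0.06 there. Col3a1 had 372 and 121 UMIs (-0.69, -1.002 to -0.39) and Nid2 (nidogen-2) 72 and 20 (-0.92). Col1a1, Col1a2, Col6a1 and Col6a2 lay between -0.04 and 0.33. Among the 29 genes of mesothelial-to-mesenchymal transition 4 were counted and none was called. All 4 were above 0, with a median of 0.26 (-0.18 to 0.71). The lowest was Vim, the intermediate filament vimentin, at 0.01 from 51 and 27 UMIs, and the highest was Tgfbr2 at 0.51.

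Secreted growth factor genes had a median of -0.28 over 11 counted of 52, with 1 called lower. The median was 0.27 in the Leiden cluster and 0.047 without the 5% of members with the most UMIs, so its sign did not hold. The called gene was Igfbp5, which binds insulin-like growth factors, with 111 f/f and 29 d/d UMIs. Its level was 518 and 257 CPM and the ratio -1.01 (-1.65 to -0.41), while in stromal cells it was higher in d/d at 1.06. At a gate sum of at least 5 the mesothelial ratio was 0.040. Igf1 had 135 and 46 UMIs (-0.63), Angptl4 67 and 20 (-0.82) and Igfbp7 64 and 57 (0.76), the last with an interval from 0.22 to 1.30. Fgf1, a fibroblast growth factor, had 77 and 49 UMIs (0.27). Its f/f level of 359 CPM was above that of each other f/f class, with epithelium next at 77.3 CPM. Bmp6 had 43 and 14 UMIs, a level of 201 CPM in f/f against at most 7.70 CPM in epithelial, stromal and endothelial f/f cells.

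Each of the 5 complement genes with enough counts had a higher level in f/f mesothelial cells than in each other f/f class. C3, the central complement protein, had 314 f/f and 95 d/d UMIs, a level of 1466 and 843 CPM, and its highest level in another f/f class was 114 CPM. The ratio was -0.80 (-1.14 to -0.46), an interval below 0 but under the 2-fold limit. C4b, which acts with C2 to activate C3, had 110 and 82 UMIs and a ratio of 0.50 (0.07 to 0.93), opposite in sign. C2 itself was called lower, with 57 and 12 UMIs and a ratio of -1.32 (-2.36 to -0.41). The C1 inhibitor Serping1 (77 and 28 UMIs) was at -0.53. The 5 counted of 28 genes had a median of -0.53, and 1 of the 5 was above 0.

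Among steroid-related genes 1 was called, higher in d/d. Zbtb16 (PLZF), a zinc finger gene induced by progesterone and glucocorticoid, had 56 f/f and 62 d/d UMIs. Its level was 261 and 550.2 CPM, a ratio of 1.07 (0.53 to 1.62), and it was -0.92 in stromal cells. Esr1, the oestrogen receptor, had 242 and 111 UMIs (1129.6 and 985 CPM, -0.20, -0.54 to 0.13). Pgr, the progesterone receptor, had 21 and 10 UMIs, a level of 98.0 and 88.7 CPM in mesothelial cells beside 392 and 235 CPM in epithelial cells. The 4 counted of 30 genes had a median of -0.10, with 1 called higher.

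Among the 34 prostaglandin and lipid genes Ptgs1 (cyclooxygenase-1), Hpgd, which inactivates prostaglandins, and Cyp2s1 were counted, none was called, and their median was -0.36. Hpgd had 90 and 37 UMIs and a level of 420.1 and 328 CPM, against 45.7 CPM or less in each other f/f class. Of 46 chemokine, cytokine and antigen presentation genes Il18 and H2-K1 were counted, and Il18 was the 1 called, lower. Immediate early and heat shock genes had a median of 0.17 over 5 counted of 29, with none called.

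Erbb3 was near the limit of detection in these cells. It had 5 UMIs in f/f, 23.3 CPM (7.58 to 54.5), and 0 in d/d, where 0 UMIs allow a level of up to 26.6 CPM. In f/f stromal cells it had 30 UMIs and in f/f epithelial cells 132, the latter 78.5 CPM. No fold was given, because both mesothelial values are within reach of that limit. A loss of Erbb3 in mesothelial cells was not detectable at this depth, and whether the probes lie in the deleted part of the gene is not given in the sources used here. Of 16 ErbB receptors and ligands none reached 50 UMIs. The partner receptor Erbb2 had 23 and 3 UMIs, Egfr 15 and 5, and the neuregulin gene Nrg2 21 and 12. Nrg2 was seen at 98.0 and 106 CPM in mesothelial, 90.3 and 211 CPM in stromal and 5.35 and 21.2 CPM in epithelial cells.

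The widest differences overall were those of the 10 highest and 10 lowest ratios, gate genes left out. Lowest was Xdh, the xanthine dehydrogenase of purine breakdown, with 78 f/f and 3 d/d UMIs. Its ratio was -3.77 (-6.08 to -2.17) in mesothelial cells and -2.31 in epithelial cells, also lower in d/d, and it lay between -5.01 and -2.76 under all other settings. After Wnt2b came Rnf112, a ubiquitin ligase gene, with 58 and 7 UMIs and a ratio of -2.12 (-3.50 to -0.99). Rnf112 was at 1.55 in stromal cells, from 11 and 6 UMIs, and the mesothelial minus the stromal ratio was -3.68 (-5.51 to -1.85). Then followed Efemp1 and Dbp, a transcription factor of the circadian clock output, with 59 and 8 UMIs and a ratio of -1.96. Dbp was at -0.07 in stromal and -0.24 in epithelial cells.

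The splicing gene Cwc22 had 146 f/f and 20 d/d UMIs and a ratio of -1.94, beside -2.35 in stromal and -2.72 in epithelial cells. The mesothelial minus the stromal ratio was 0.41 (-0.42 to 1.24), so Cwc22 was low in the d/d library in each of these classes. Dcxr, a sugar reductase gene, was at -1.72, beside -1.15 and -1.28, and was 4.39 times higher in another class. With competing sums at 0 it was 0.066, so no direction is given for mesothelial cells. Hnrnpa2b1 (66 and 10 UMIs, -1.80) and Rnpc3 (43 and 7 UMIs, -1.69), both RNA-binding genes, complete the lowest 10 with Jam2. Further down, Alad, an enzyme of haem synthesis, had the most UMIs of any gene called lower, 505 (f/f) and 109 (d/d). Its level was 2357 and 967 CPM and its ratio -1.29 (-1.60 to -0.98), beside -0.19 in stromal and -0.21 in epithelial cells.

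At the other end stood Col6a4, a collagen VI chain, with a ratio of 2.60 (1.74 to 3.55) from 15 f/f and 48 d/d UMIs. Col6a4 was over 5 times higher in another class, stroma, where the ratio was 2.09. Plet1 (1.77) and the matrix metalloprotease gene Mmp2 (1.49) were also over 5 times higher elsewhere, and Plet1 was -0.078 at a gate sum of at least 5. Tnfrsf19 (24 and 36 UMIs, 1.51) and the stress-response gene Nupr1 (21 and 29 UMIs, 1.39) were not, yet Tnfrsf19 was at 1.71 in epithelial and 0.96 in stromal cells and Nupr1 at 1.21 and 2.22. Igkc, an immunoglobulin chain made by plasma cells, was at 1.27 in mesothelial, 1.28 in stromal and 0.999 in epithelial cells. The last of the 10 were Tdp2, mt-Nd4l, Slc8a1 and Hip1, from 1.27 down to 1.22, and Hip1 was -0.14 at a gate sum of at least 5. Of these 10 genes 9 also had a ratio above 0 in stromal cells and all 10 in epithelial cells. The share over all counted genes is not given beside these counts.

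**Figure D5:**
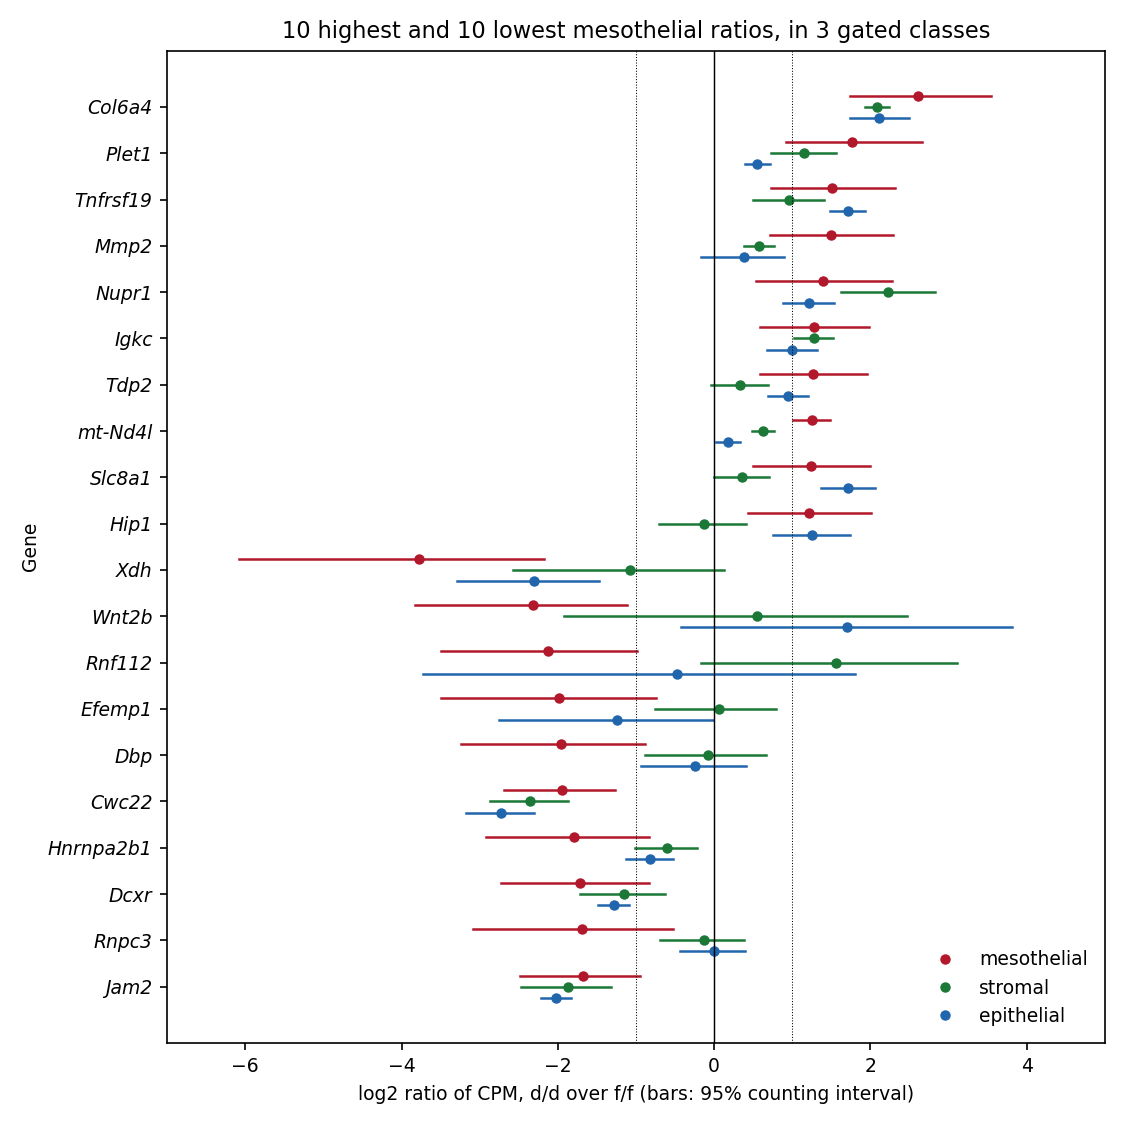
Log2 ratio of CPM, d/d over f/f (x axis), with 95% counting intervals, for the 10 highest and 10 lowest mesothelial ratios (rows), in mesothelial, stromal and epithelial cells. Dotted lines mark 2-fold. Wnt2b, Rnf112 and Dbp are low in mesothelial cells, at -2.32, -2.12 and -1.96, whereas Cwc22 is low in all 3 classes. The Jam2 and Dcxr points are as gated, and their direction did not hold under other settings.

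Proliferation genes were seen in more d/d than f/f members. In cells thinned to 500 UMIs, 52 of 226 f/f members (23.01%, 17.7 to 29.1) and 36 of 104 d/d members (34.6%, 25.6 to 44.6) had a UMI of at least 1 of 44 genes. By the same measure epithelial cells were at 43.7% and 76.8%, and stromal cells at 38.4% and 40.8%. At least 3 such UMIs were present in 0.885% and 8.65% of members, and in 3.58% and 10.2% of stromal cells. For epithelial cells these shares were 20.9% and 54.9%, for endothelial cells 19.5% and 17.0%, and for immune cells 0 and 12.5%. Top2a, a DNA topoisomerase of dividing cells, had 7 and 22 UMIs in mesothelial cells, 32.7 and 195 CPM, beside 361 and 728 CPM in epithelial cells. Thinned before gating, the difference between the libraries was 0.25 percentage points, against 11.6 as gated. Transcripts of dividing epithelial cells that reach other barcodes would be counted too, and their part was not tested.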

How the data were processed

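Single-cell RNA was measured in 1 Erbb3 f/f and 1 Erbb3 d/d library. The deposited values are UMI counts for 19070 genes in each deposited cell barcode, and per the file headers they were made with Cell Ranger 9.0.0. The submitters' processing notes name mm10 and GRCm39 without saying which was used for what, and the labels name different kit versions for the same libraries. Counts of members were summed per gene and library and scaled to CPM, with the same form of gate for the other 4 classes. Log2 ratios were given for genes with 50 or more UMIs in total, with the exact conditional binomial interval, and 0 counts were set against 3 counts. Shares have exact Clopper-Pearson and CPM values exact Poisson intervals. Differences of shares combine both intervals, and list medians and differences between log2 ratios have approximate normal intervals on the log scale. Interval code was tested on simulated data. Doublets were not removed beyond the gate. Among the alternatives, TMM scaling used edgeR 4.0.16 and clustering used scanpy 1.11.5 and leidenalg 0.10.2. No test was run between genotypes. Positions come from GENCODE M21 (GRCm38), in which all 557 gene IDs looked up were found.

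The members, marker lists, gene lists and thresholds were chosen with earlier results of these data known. Some list genes are not reported here, and list counts, sums and medians were computed without them. The genes named are the gate genes, the 21 other markers, Erbb3, the 10 highest and 10 lowest ratios, the 15 leading genes, the 10 most variable genes, and in each list the called members and those with the highest or lowest level or ratio. Alad, and a few list members with many counts, were named after their values were seen.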

Additional observations from a re-analysis of the deposited data

Results flagged for a closer look

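Igfbp5 and Zbtb16 had d/d over f/f ratios of opposite sign in mesothelial and in stromal cells. The counting interval left out 0 in each of these classes and for the difference. They were not the only such genes. Baiap2l1 was at -1.54 in mesothelial and 0.93 in stromal cells, a difference of -2.48 (-3.53 to -1.42). For Rnf112, Wnt2b, Efemp1 and Hip1 the signs also differed and the interval of the difference left out 0. Their stromal intervals included 0. Igfbp5 was at -1.01 in mesothelial cells, from 111 f/f and 29 d/d UMIs, and at 1.06 in stromal cells, from 150 and 58, a difference of -2.07 (-2.80 to -1.33). Zbtb16 was at 1.07 in mesothelial cells, from 56 and 62 UMIs, and at -0.92 in stromal cells, from 417 and 41, a difference of 1.99 (1.29 to 2.69). With 1 library per genotype none of these differences was tested over animals, and the intervals cover counting error only. Igfbp5 was at 0.040 in mesothelial cells with a gate sum of at least 5.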

How the results depend on the processing

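No paired analysis was possible because each genotype has 1 library and no test was made. Depth limits the results: with a median of 689.5 and 798.5 UMIs per member, 1676 of 19070 genes had 50 UMIs. The difference in mesothelial share was 4.28 points over cells that passed any gate (chosen after seeing the data), 0.045 at a mitochondrial limit of 5%, 0.21 and -0.32 at gate sums of at least 3 and 5, 4.88 for the Leiden cluster and 0.28 after thinning before the gate. Genes called higher and lower numbered 18 higher at the 5% limit, 13 and 14 at a gate sum of 5, 7 and 18 with competing sums at 0, 7 and 19 after thinning, 122 and 174 at 20 UMIs per gene and 5 and 13 at 100. Medians below 0 numbered 8 of 11 lists, against 2 of 4 at a gate sum of 5, 2 of 4 with competing sums at 0 and 4 of 4 after thinning. The retinoid median turned to -0.42 with competing sums at 0, -0.33 without the 5% deepest members, -0.16 after thinning and -0.19 at 100 UMIs, and to -0.065, -0.037 and -0.022 at a gate sum of 3, at 20 UMIs and without genes over 5 times higher elsewhere. The growth factor median turned to 0.047 without the deepest members and 0.27 in the Leiden cluster. Too few complement genes were counted for a median at a gate sum of 5, with competing sums at 0 or after thinning. Plet1 was -0.078, Hip1 -0.14 and Igfbp5 0.040 at a gate sum of 5, Dcxr was 0.066 with competing sums at 0 and Jam2 1.12 after thinning. The proliferation difference was 0.25 after thinning before the gate and 24.2 when thinned to 1000 UMIs. At a gate sum of 5, 7 of the 21 markers stood above each other class, and at 100 UMIs 7 of the 15 leading genes remained, against 3 with each other class at no less than 3 UMIs (chosen after seeing the data). The smaller sets of cells and the UMI minimum change how many genes are counted, and the cause of the other changes was not tested. Of 690 values of named genes under alternatives, 639 lay within the counting interval of the ratio as gated. Where that interval includes 0, such a value can still have changed sign.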

Other observations

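Dbp and Tef, which encode transcription factors of the circadian clock output, were both among the 66 genes called lower in d/d mesothelial cells, and 18 clock genes were then looked up, so this set was chosen after its values were seen. Dbp had 59 f/f and 8 d/d UMIs (-1.96, -3.23 to -0.88), and Tef 55 and 14 (-1.05, -2.01 to -0.18). Apart from these and Per1, the remaining 15 had under 50 UMIs, too few for a ratio here. Nr1d1 had 24 and 1 UMIs, Per2 13 and 2, Per3 21 and 7, Nr1d2 18 and 5, Npas2 16 and 6, Hlf 9 and 4 and Bhlhe41 6 and 2. Clock had 21 and 13, Cry2 11 and 5, Bhlhe40 10 and 5, Cry1 5 and 5, Arntl 4 and 8, Nfil3 4 and 3 and Rora 2 and 4, and Ciart had none. These UMIs are not scaled, and the f/f sum is the deeper one. In CPM, Clock (98.0 and 115), Cry1, Arntl, Nfil3 and Rora were higher in d/d. The other genes of these 15 that had UMIs were lower, from Bhlhe40 at 46.7 and 44.4 CPM to Nr1d1 at 112 and 8.87 CPM. Per1, with 71 and 29 UMIs, was at -0.36 (-1.04 to 0.28). In stromal cells Dbp was at -0.07 and Tef at -0.16, and in epithelial cells at -0.24 and -0.22. Both library titles carry the same clock time, and the hour at which each mouse was killed was not analysed here.

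A pair of further called genes was singled out after their values were seen. Unc45b, a myosin chaperone, had 79 and 18 UMIs and was called lower in d/d at -1.21 (-2.03 to -0.45), beside 0.01 in stromal cells. Itga7, a laminin receptor, had 50 and 10 UMIs and was called lower at -1.40.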
